A study of Homo sapiens with 12 samples.

Results

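The 9 genes described here encode parts of the MHC class I antigen presentation machinery: HLA-B, HLA-C, HLA-E, B2M, TAP1, TAP2, TAPBP, ERAP1 and NLRC5. They were chosen by symbol, and each had 1 row among the 60605 genes of the deposited count table. Their levels were read in SBC5, an established human cell line labelled as small cell lung cancer and wild type. Every culture was collected 3 days after treatment, and olaparib or DMSO was added 2 h before the irradiation step. The combination group received 1 µM olaparib, a drug that blocks the poly(ADP-ribose) polymerases used in DNA repair, and gamma radiation at 4 Gy. The radiation group received DMSO and 4 Gy, the olaparib group received 1 µM olaparib and 0 Gy, and the vehicle group received DMSO and 0 Gy. Each group had 3 libraries of total RNA, and nothing in the labels says that they came from separate cultures, so the p-values measure the spread between these libraries, which may be technical. One line without immune cells limits the model to what tumour cells do by themselves.

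Class I molecules display short peptides from inside the cell to CD8+ T cells. A polymorphic heavy chain pairs with B2M in the endoplasmic reticulum. The TAP1 and TAP2 transporter pumps peptides in from the cytosol, tapasin (TAPBP) holds the empty heavy chain next to the transporter and helps to select peptides, and ERAP1 trims peptides to length. NLRC5 activates transcription of many of these genes through a conserved promoter module. Small cell lung cancer is known for low class I expression.

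Library totals ran between 14300459 and 38804959 estimated counts. Olaparib libraries 2 and 3 and radiation library 3 stood apart by their background: 404 olfactory receptor genes, normally silent in lung, summed to between 920.2 and 2097.8 counts per 1000000 (CPM) there, against between 354.7 and 501.3 CPM in the other 9 libraries. Those 3 libraries are given apart for each gene and were kept out of the tests, which leaves 1 olaparib library, 2 radiation libraries and 3 in each of the combination and vehicle groups. All 9 members passed the filter on low counts. The labelled cell type was checked in the 9 libraries: the neuroendocrine factor INSM1 was at most 0.285 CPM, and the granule protein CHGA was at most 0.538 CPM. SYP, a synaptic vesicle protein, ran between 16.4 and 27.3 CPM, and YAP1, a Hippo pathway coactivator, between 84.0 and 124 CPM. Of 8 leukocyte markers, 2 averaged at least 1 CPM in every group: the lysosomal protein CD68 ran between 78.1 and 100 CPM and PTPRC between 0.717 and 2.28 CPM, while the T cell gene CD3E was at most 0.143 CPM. Of 6 genes of class II presenting cells, 3 averaged at least 1 CPM, with the class II transactivator CIITA highest at 4.57 to 9.21 CPM, and the class II chain HLA-DRA was at most 0.618 CPM.

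The promoters show which control elements the members share in the reference genome. RefSeq promoter windows of GRCh38.p14, running 250 bases before to 50 bases after the start, were held for 7 of the 9 members, namely HLA-B, HLA-C, B2M, TAP1, TAP2, TAPBP and ERAP1. HLA-E and NLRC5 are named only. The stretches of HLA-B (chr6:31357254-31357359, minus strand), HLA-C (chr6:31272167-31272272, minus strand) and B2M (chr15:44711367-44711476, plus strand) are printed because all 3 hold the spaced module TGACG to ATTGG. They are written 5′ to 3′, and capitals mark matches to the 3 motifs described after them.
HLA-B: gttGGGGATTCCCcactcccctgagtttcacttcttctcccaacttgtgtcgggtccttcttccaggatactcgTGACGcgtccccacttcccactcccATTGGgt
HLA-C: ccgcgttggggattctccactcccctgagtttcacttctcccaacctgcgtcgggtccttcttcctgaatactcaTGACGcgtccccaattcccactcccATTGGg
B2M: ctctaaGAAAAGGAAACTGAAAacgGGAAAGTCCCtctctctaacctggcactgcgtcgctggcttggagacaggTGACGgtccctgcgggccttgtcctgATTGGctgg
The module was searched on both strands as TGACG followed by ATTGG with 19 to 22 bases between, the core letters of the class I module to which the NLRC5 partners bind. It was found in 0.228% of the 35116 promoters in the table, with 20 bases between in HLA-B and HLA-C and 21 in B2M. The HLA-B and HLA-C stretches matched at 95 aligned positions, with 7 mismatches and 8 gaps (86.4% identity). A second search was for GGG, any 2 bases, TT, any 1 base and CC, letters of an NF-kB type site, also on both strands. It was found in the windows of HLA-B, B2M, TAP1, TAPBP and ERAP1 and in 5.68% of all promoters.

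The third motif, GAAA repeated after any 2 bases and searched on both strands, has the letters of an interferon regulatory factor type element. It is shown for the chaperone and the transporter genes, which hold it within 140 bases upstream of the RefSeq start. Capitals mark its matches on either strand, and neighbouring matches overlap in TAPBP and TAP1. The stretches lie at chr6:33314079-33314108 for TAPBP, chr6:32853815-32853844 for TAP1 and chr6:32838781-32838810 for TAP2, all read on the minus strand.
TAPBP: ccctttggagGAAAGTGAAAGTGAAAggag
TAP1: ggccgcTTTCGATTTCGCTTTCccctaaat
TAP2: tggctggggaagcGAAAGCGAAAgctgccc
The motif was also in the windows of B2M, printed above, and ERAP1, and it occurred in 3.57% of all promoters. A match describes letters in the reference and not factor binding in these cells.

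In vehicle cells the light chain was the most abundant member per length of transcript. B2M averaged 75.3 ± 2.81 CPM per kb (SD, n = 3 vehicle libraries for this and the following levels). TAPBP followed at 14.9 ± 1.96 and HLA-E, the heavy chain that presents leader peptides to NK cell receptors, at 12.1 ± 2.06 CPM per kb. These neighbours in the order lay within their spread of each other. The classical heavy chains HLA-C and HLA-B averaged 7.72 ± 1.51 and 4.3 ± 0.221 CPM per kb, and TAP2 averaged 3.29 ± 0.124 CPM per kb. ERAP1 at 1.74 ± 0.29 and TAP1 at 1.59 ± 0.346 CPM per kb did not differ beyond their spread. NLRC5 was last at 0.0668 ± 0.0271 CPM per kb.

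**Figure D1:**
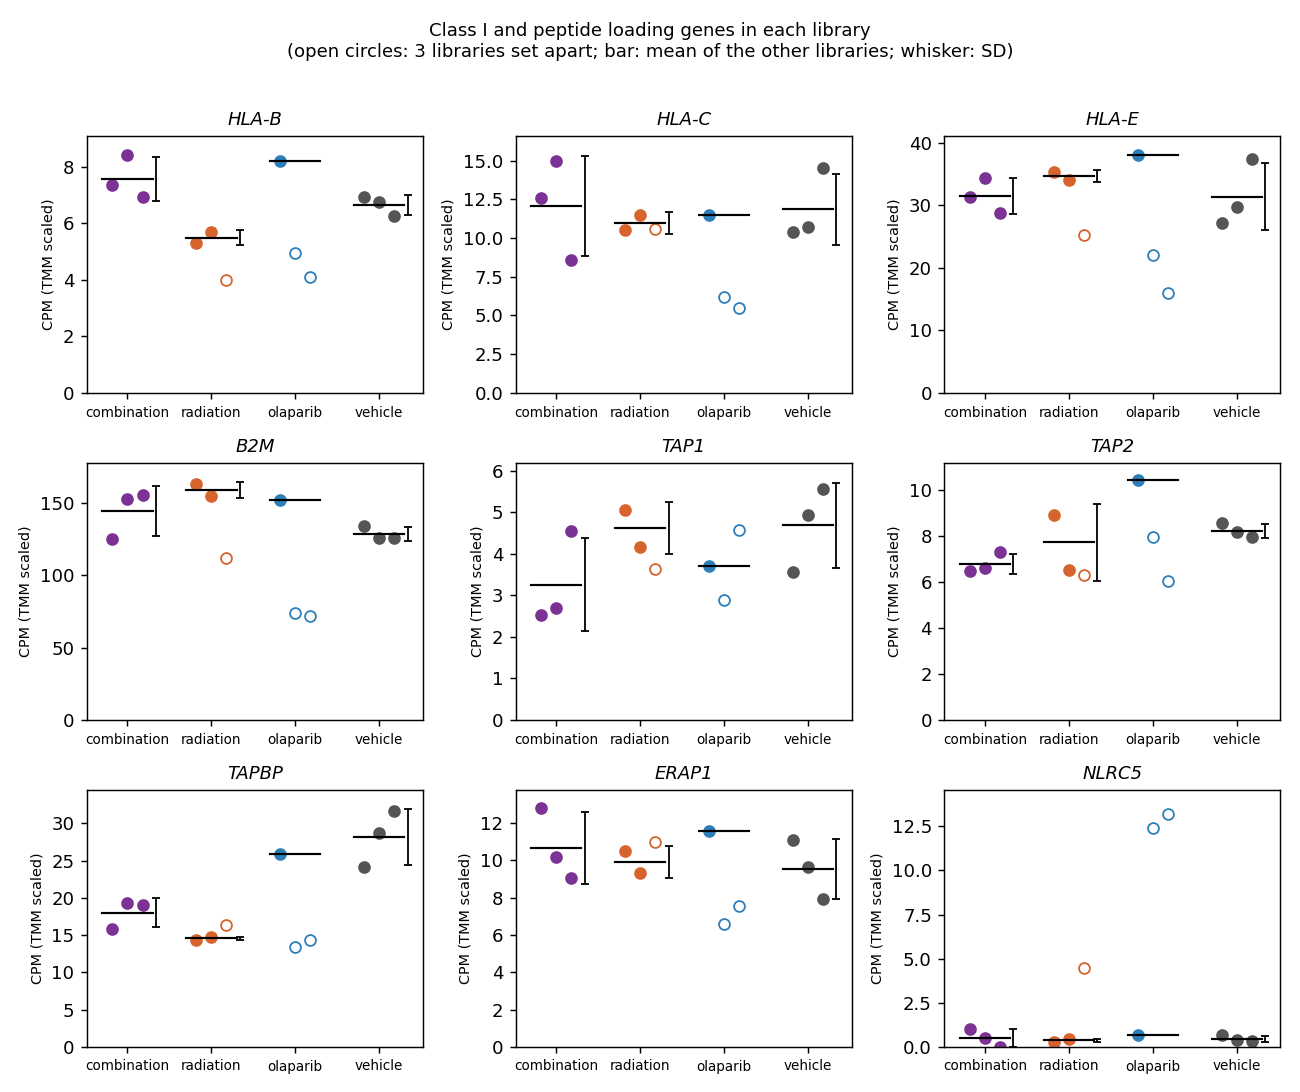
Level of each of the 9 genes (y axis, CPM scaled by edgeR's TMM factors, linear and from 0) in every library of the 4 groups (x axis); filled points are the 9 libraries tested, open circles the 3 libraries set apart, bars the mean of the filled points and whiskers their SD. TAPBP lies between 14.4 and 19.3 CPM in the filled irradiated libraries and between 24.2 and 31.6 CPM in the filled unirradiated ones, and NLRC5 is high only in the open circles.

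TAPBP was the member that passed the test, in both irradiated groups against vehicle. TAPBP (ENSG00000231925, chr6:33299694-33314387, minus strand, GRCh38 in GENCODE 29) had 15.8, 19.3 and 19 CPM in the combination libraries, 14.4 and 14.7 CPM in radiation libraries 1 and 2, 25.9 CPM in olaparib library 1 and 24.2, 28.7 and 31.6 CPM in the vehicle libraries. All 5 irradiated libraries lay below all 4 unirradiated ones, a pattern that 3.4% of the 30967 tested genes had, while 5.85% separated in either direction. The libraries set apart gave 16.3 CPM for radiation library 3 and 13.4 and 14.4 CPM for olaparib libraries 2 and 3, so that the separation by level is lost when they are added. No 31-base run of the TAPBP transcript occurs in another annotated gene.

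The combination lowered TAPBP to 18.0 ± 1.93 CPM, against 28.2 ± 3.7 CPM in vehicle cells (SD, n = 3 each). The log2 fold change was -0.65 (SE 0.136), with an adjusted p of 0.000674 by edgeR's quasi-likelihood test with Benjamini-Hochberg adjustment over all tested genes. It was the 1 of 9 members called, beside 4.8% of all tested genes called in this comparison (1.53% higher and 3.26% lower). TAP2 was the other member whose libraries did not overlap, with 6.48, 6.59 and 7.27 CPM in the combination libraries and 8.54, 8.14 and 7.94 CPM in the vehicle libraries. Its log2 fold change of -0.28 (SE 0.213) did not pass the test (edgeR adjusted p = 0.667). Non-overlapping libraries were found for 2 members, and for 19.5% of all tested genes. The median log2 change was 0.02 over the members and 0.02 over all genes.

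Radiation alone lowered TAPBP to 14.5 ± 0.242 CPM (n = 2), against 28.2 ± 3.7 CPM in vehicle cells (n = 3). The log2 fold change was -0.95 (SE 0.155; edgeR adjusted p = 3e-05). It was again the 1 member called of 9, beside 1.1% of all tested genes (0.42% higher and 0.678% lower). The libraries of 3 members did not overlap (HLA-B, B2M and TAPBP), as did those of 25.2% of all genes. The median log2 change was -0.09 over the members and -0.03 over all genes. When the 3 libraries set apart were included, the fold changes of TAPBP were -0.65 for the combination and -0.90 for radiation, but neither was called (edgeR adjusted p = 1.0 and 0.934), and 1 and 0 genes of the whole table were.

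Summed markers of fibroblasts, a list of 5 genes for another cell type, moved in the same direction as TAPBP. Their sum was 79.3 to 85.0 CPM in combination libraries, 90.1 to 107 CPM in radiation libraries, 114 CPM in olaparib library 1 and 110 to 115 CPM in vehicle libraries. Of the 5 genes, 4 averaged at least 1 CPM in every group, none was at 0 throughout a group, and PDGFRA made up 63.8 to 97.8 CPM. Among the 9 libraries PDGFRA was lower in every irradiated than in every unirradiated one, while COL1A1 overlapped at 11.7 to 17.3 CPM. COL1A2, DCN and LUM overlapped as well, at no more than 2.9 CPM. The 8 lineage genes of small cell lung cancer also summed lower, to 102 to 117 CPM in combination libraries and 114 to 123 CPM in radiation libraries, against 133 CPM in olaparib library 1 and 141 to 153 CPM in vehicle libraries. Within that sum YAP1 was at most 99.5 CPM in the irradiated libraries and at least 108 CPM in the unirradiated ones. The part of either list in the TAPBP result was not tested. All libraries are labelled as the SBC5 line, so the sums are levels within that line and not a measure of fibroblasts. Whether fewer SBC5 cells express a gene or each holds less of its RNA cannot be told apart in bulk libraries.

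The ratio of TAPBP to B2M within a library does not depend on how libraries are scaled to each other. TAPBP counts were 12.7%, 12.6% and 12.1% of B2M counts in the combination libraries, 8.84% and 9.48% in radiation libraries 1 and 2, 17.1% in olaparib library 1 and 18.1%, 22.9% and 25.1% in the vehicle libraries. The libraries set apart had 14.5% (radiation 3) and 18.1% and 20.1% (olaparib 2 and 3). All 6 irradiated libraries, at 8.84% to 14.5%, were therefore below all 6 unirradiated ones, at 17.1% to 25.1%. A ratio to B2M separated in this way for 1.71% of all tested genes. The ratio shows unequal change of the pair, and B2M itself was nominally higher after radiation. Against the summed counts of the 7 members other than TAPBP and NLRC5, TAPBP made up 8.3% ± 0.276 in combination cells and 14.0% ± 1.8 in vehicle cells (SD, n = 3 each).

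**Figure D2:**
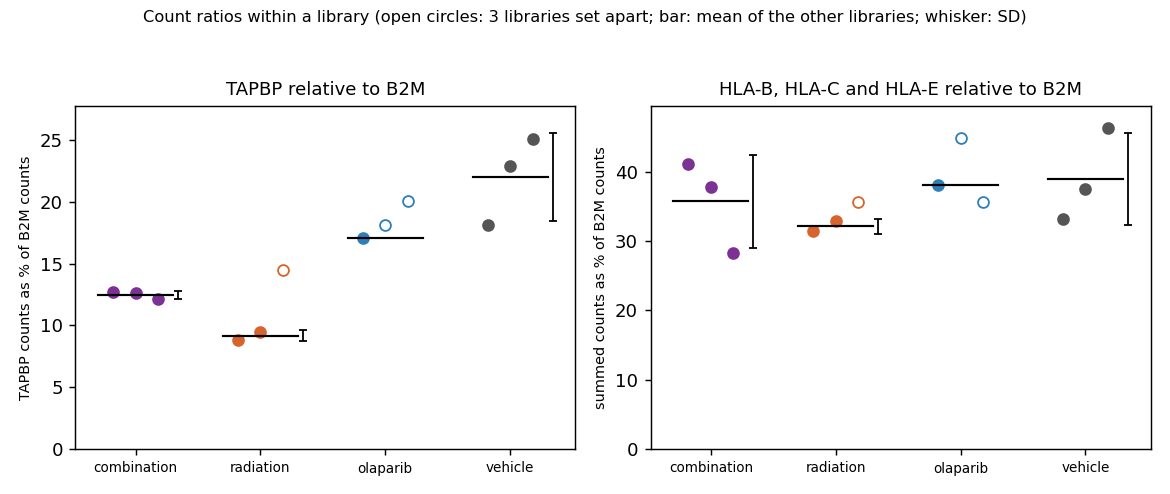
Count ratios within each library by group (x axis): TAPBP as a percentage of B2M counts (left) and the summed HLA-B, HLA-C and HLA-E counts as a percentage of B2M counts (right), both axes from 0. Open circles are the 3 libraries set apart, bars the mean of the filled points and whiskers their SD; the TAPBP ratio is 8.84% to 14.5% in the irradiated libraries and 17.1% to 25.1% in the unirradiated ones, while the heavy chain ratio is 28.3% to 41.2% in the filled combination libraries and 33.2% to 46.3% in the vehicle libraries.

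Neither classical heavy chain was called in any comparison. HLA-B had 7.35, 8.43 and 6.94 CPM in combination libraries, 5.3 and 5.69 CPM in radiation libraries 1 and 2, 8.2 CPM in olaparib library 1 and 6.94, 6.74 and 6.27 CPM in vehicle libraries. Among these 9 libraries the 2 radiation libraries were lowest, and combination and vehicle libraries met at 6.94 CPM. The libraries set apart were lower still, at 4.0 CPM (radiation 3) and 4.95 and 4.1 CPM (olaparib 2 and 3). For HLA-B the log2 fold change was 0.19 (SE 0.225) for the combination and -0.28 (SE 0.253) for radiation against vehicle (edgeR adjusted p = 0.838 and 0.82). HLA-C had 12.6, 15.0 and 8.6 CPM in combination libraries, 10.5 and 11.5 CPM in radiation libraries, 11.5 CPM in olaparib library 1 and 10.4, 10.7 and 14.5 CPM in vehicle libraries. Its groups overlapped throughout these libraries, and the libraries set apart had 10.6 CPM (radiation 3) and 6.19 and 5.45 CPM (olaparib 2 and 3). HLA-C had a log2 fold change of 0.02 (SE 0.185) for the combination and -0.11 (SE 0.206) for radiation against vehicle. HLA-E ran at 28.7 to 34.4 CPM in combination libraries, 34.0 to 35.3 CPM in radiation libraries and 27.1 to 37.4 CPM in vehicle libraries, and olaparib library 1 was highest at 38.0 CPM. The libraries set apart had 25.3 CPM (radiation 3) and 22.1 and 16.0 CPM (olaparib 2 and 3), below all 9. Its log2 fold change was 0.00 (SE 0.113) for the combination and 0.14 (SE 0.125) for radiation against vehicle.

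Reads of the heavy chains cannot be assigned with certainty. Of the 31-base runs in the reference transcripts, 32.5% in HLA-B, 20.2% in HLA-C and 13.0% in HLA-E also occur in other genes, and HLA-B shares 10.8% of its runs with HLA-C. The alleles carried by the line were not compared with the reference. HLA-B (chr6:31269491-31357188) partly overlaps HLA-C (chr6:31268749-31272130) in the GENCODE 29 annotation, and both lie on the minus strand. HLA-E (chr6:30489467-30494205) lies on the plus strand of the same region.

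B2M, the light chain shared by all class I molecules, was the member with the smallest relative spread, with a coefficient of variation of 10.8% over the 9 libraries. It had 125, 153 and 156 CPM in combination libraries, 163 and 155 CPM in radiation libraries 1 and 2, 152 CPM in olaparib library 1 and 134, 126 and 126 CPM in vehicle libraries. The radiation libraries and the olaparib library lay above every vehicle library, and the combination libraries overlapped them. For B2M the log2 fold change was 0.31 (SE 0.0857) for radiation and 0.17 (SE 0.0774) for the combination against vehicle (edgeR adjusted p = 0.0519 and 0.259). The call for radiation rests on the settings, since B2M passed in 6 of the 16 alternatives run on the 9 libraries, with adjusted p-values from 0.00163 to 0.371. With scaling by library size alone the combination also passed (log2 0.37, adjusted p = 0.000515), a setting that moved the median of all genes to 0.22. B2M (chr15:44711487-44718877, plus strand) shares no 31-base run with another gene.

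The heavy chains were also set against the light chain within each library. Summed HLA-B, HLA-C and HLA-E counts, as a share of B2M counts, were 41.2%, 37.8% and 28.3% in combination libraries, 31.4% and 32.9% in radiation libraries 1 and 2, 38.1% in olaparib library 1 and 33.2%, 37.5% and 46.3% in vehicle libraries. These ranges overlapped between combination and vehicle, while both radiation libraries lay just below the vehicle libraries. The mean was 35.8% ± 6.69 in combination cells and 39.0% ± 6.68 in vehicle cells (SD, n = 3 each).

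The transporter genes were low and scattered. TAP1 had 2.53, 2.69 and 4.56 CPM in combination libraries, 5.07 and 4.18 CPM in radiation libraries 1 and 2, 3.71 CPM in olaparib library 1 and 3.57, 4.94 and 5.57 CPM in vehicle libraries. The first and second combination libraries were the lowest of the 9, but the third lay among the vehicle libraries. The libraries set apart had 3.63 CPM (radiation 3) and 2.9 and 4.58 CPM (olaparib 2 and 3). The log2 fold change of TAP1 was -0.53 (SE 0.3) for the combination and -0.02 (SE 0.328) for radiation against vehicle (edgeR adjusted p = 0.451 and 0.997). TAP2 had 8.9 and 6.53 CPM in radiation libraries 1 and 2, on either side of the vehicle libraries, and 10.4 CPM in olaparib library 1. In the libraries set apart it had 6.3 CPM (radiation 3) and 7.93 and 6.04 CPM (olaparib 2 and 3). For radiation against vehicle TAP2 had a log2 fold change of -0.09 (SE 0.235; edgeR adjusted p = 0.965). TAP1 counts were 39.0%, 40.9% and 62.6% of TAP2 counts in combination libraries, against 41.8%, 60.9% and 70.0% in vehicle libraries.

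TAP1 (chr6:32845209-32853978) and TAP2 (chr6:32821833-32838780) are neighbours on the minus strand, and neither count is free of shared sequence. TAP2 shares 80.4% of its 31-base runs with AL669918.1, an overlapping annotated gene that received 0 to 31 counts in a library. TAP1 shares 14.7% with PSMB8-AS1, which lies on the opposite strand and received 0 to 20 counts. The libraries were made with a stranded kit, but no source used here gives the strand setting of the counting, so such reads cannot be told apart.

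ERAP1, the aminopeptidase that trims peptides in the endoplasmic reticulum, had 12.8, 10.2 and 9.03 CPM in combination libraries, 10.5 and 9.32 CPM in radiation libraries 1 and 2, 11.6 CPM in olaparib library 1 and 11.1, 9.63 and 7.91 CPM in vehicle libraries. Combination and radiation libraries overlapped the vehicle libraries, and the libraries set apart had 11.0 CPM (radiation 3) and 6.58 and 7.54 CPM (olaparib 2 and 3). For ERAP1 the log2 fold change was 0.16 (SE 0.191) for the combination and 0.06 (SE 0.212) for radiation against vehicle (edgeR adjusted p = 0.834 and 0.977). ERAP1 lies at chr5:96760810-96808100 on the minus strand, overlapping CAST on the other strand.

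NLRC5 (chr16:56989485-57083531, plus strand) was near the counting floor in the 9 libraries. It had 1.02, 0.493 and 0 CPM in combination libraries, 0.3 and 0.44 CPM in radiation libraries 1 and 2, 0.657 CPM in olaparib library 1 and 0.666, 0.38 and 0.32 CPM in vehicle libraries. The third combination library had no count, which allows up to 0.143 CPM, the level of 3 counts. The groups overlapped, and the log2 fold changes had standard errors of 0.976 and more; none passed the test. The 3 libraries set apart held 4.48 CPM (radiation 3) and 12.4 and 13.2 CPM (olaparib 2 and 3), in the same order as their olfactory receptor sums of 920.2, 1897.1 and 2097.8 CPM. The part of that background in the NLRC5 values was not tested. B2M had 112, 74.1 and 71.7 CPM in the same 3 libraries.

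**Figure D3:**
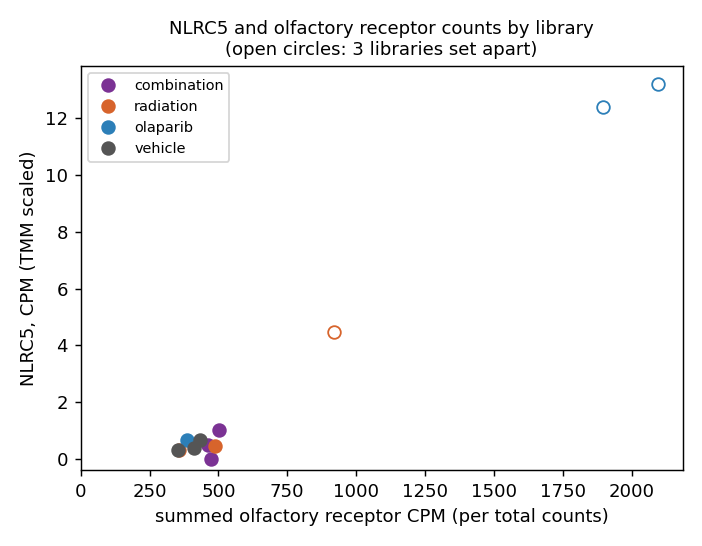
NLRC5 level (y axis, TMM-scaled CPM) against the summed CPM of 404 olfactory receptor genes per total counts (x axis) in each of 12 libraries; colours give the 4 groups and open circles the 3 libraries set apart, and some of the 9 filled points coincide. The filled points sit at or below 1.02 CPM of NLRC5 and 501.3 CPM of olfactory receptors, the open circles at 4.48, 12.4 and 13.2 CPM of NLRC5.

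Olaparib alone was represented by 1 library, whose spread was taken to be that of the other groups, and the 9 members gave no call. The share of all genes called in this comparison was 0.0678% (0.00969% higher and 0.0581% lower). B2M had 152 CPM in the olaparib library and 128 ± 4.8 CPM in vehicle cells (log2 0.24, SE 0.107; edgeR adjusted p = 1.0), with an unadjusted p under 0.05. The log2 fold change was 0.3 (SE 0.307) for HLA-B, 0.27 (SE 0.155) for HLA-E, 0.34 (SE 0.287) for TAP2 and -0.12 (SE 0.188) for TAPBP. The median was 0.27 over the members and -0.02 over all genes. The direction is not stable for HLA-B, HLA-E, B2M, TAP2 and ERAP1, each of which had a negative value once the 2 olaparib libraries set apart were added. That setting, with all 12 libraries, also moved the median over all genes to 0.39, so these sign changes are not particular to the members.

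Olaparib added to radiation gave no call among the 9 members, beside 0.568% of all genes called (0.142% higher and 0.426% lower). TAPBP averaged 18.0 ± 1.93 CPM in combination cells (n = 3) and 14.5 ± 0.242 CPM in radiation cells (n = 2). All 3 combination libraries lay above both radiation libraries, with a log2 fold change of 0.31 (SE 0.155; edgeR adjusted p = 0.523). HLA-B was the other member without overlap, at 6.94 to 8.43 CPM in combination libraries and 5.3 and 5.69 CPM in radiation libraries (log2 0.46, SE 0.255; edgeR adjusted p = 0.583). Libraries did not overlap for 24.1% of all genes in this comparison. The median log2 change was 0.1 over the members and 0.03 over all genes.

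Whether the olaparib effect differed with and without radiation was tested as an interaction, in which the effect without radiation rests on 1 olaparib library. None of the 9 members was called. Few of the 30967 tested genes were, so the lack of a call says little about the members. The difference of log2 effects was 0.43 (SE 0.244) for TAPBP, -0.38 (SE 0.138) for B2M and -0.41 (SE 0.2) for HLA-E (edgeR adjusted p = 0.758, 0.424 and 0.674).

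**Figure D4:**
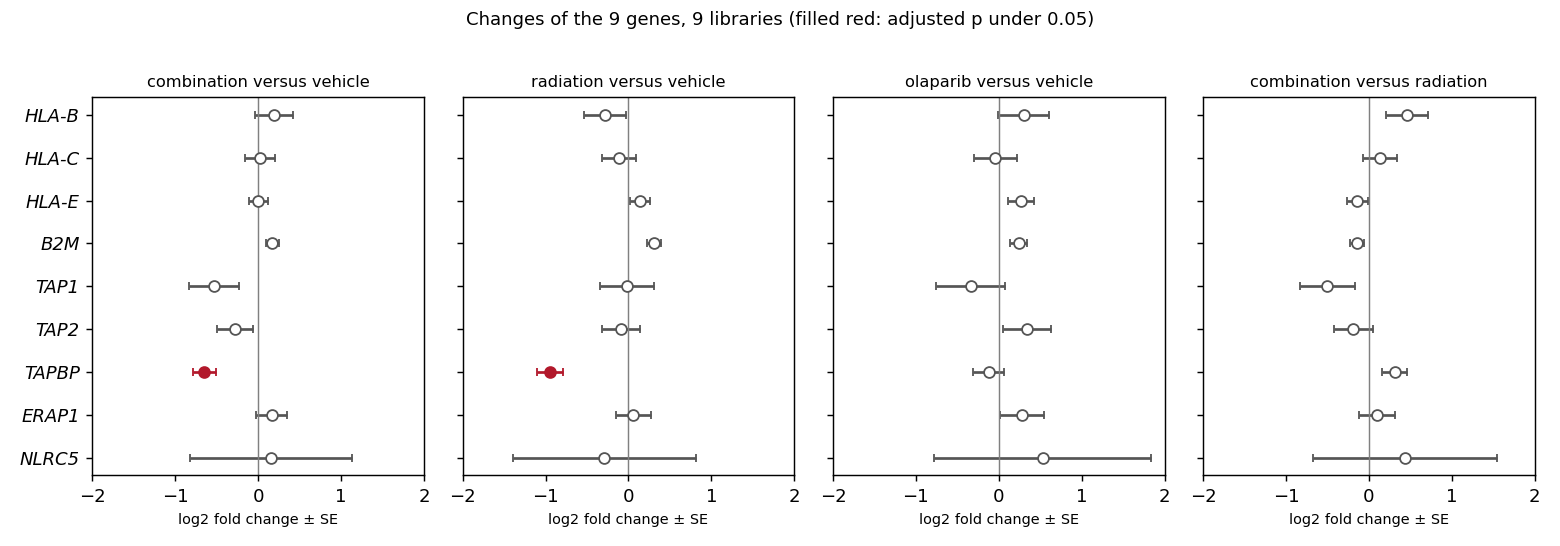
Log2 fold change ± SE (x axis) of each of the 9 genes (y axis) in 4 comparisons over the 9 libraries; filled red points have an edgeR adjusted p under 0.05. TAPBP is filled for combination against vehicle (-0.65) and radiation against vehicle (-0.95), and no member is filled for olaparib against vehicle or combination against radiation.

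The members did not vary as 1 block across libraries. Over the 9 libraries Pearson's r, given as a description of libraries that share treatments, was 0.6 between HLA-C and HLA-E and 0.4 between TAP1 and TAP2, but -0.15 between HLA-B and B2M, -0.3 between HLA-C and B2M and -0.56 between TAPBP and B2M. Among 18050 genes with at least 1 CPM on average, those most like the mean standardised level of HLA-B, HLA-C and B2M were PTK2B (r = 0.984), ZNF395 (0.917), IGBP1 (0.915), B9D1 (0.915) and FKBP4 (0.915), over 9 libraries. Spearman's rho was 0.967, 0.783, 0.717, 0.85 and 0.833 in this order. These genes were picked for the highest r of the search, so their r is no test. The mean itself followed HLA-B at r = 0.698 and B2M at r = 0.338. The relative spread over the 9 libraries was 29.5% for TAPBP and 25.8% for TAP1, and 11.8% to 17.5% for HLA-B, HLA-C, HLA-E, TAP2 and ERAP1.

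Of 80 other genes of the class I pathway, 76 passed the filter on low counts, and 0 were higher and 5 lower in combination cells than in vehicle cells. Their median log2 change was -0.06, beside 0.02 over all genes, and the share of all genes called lower was 3.26%. The clearest was HSPA5 (BiP), the Hsp70 chaperone of the endoplasmic reticulum, with 573, 450 and 547 CPM in combination libraries and 789, 855 and 891 CPM in vehicle libraries. Its log2 fold change was -0.69 (SE 0.0691; edgeR adjusted p = 6.38e-10). HSPA5 was also the 1 listed gene called for radiation (log2 -0.47, SE 0.0778; edgeR adjusted p = 0.000161), with 610 and 610 CPM in radiation libraries, and for olaparib (log2 -0.89, SE 0.103; edgeR adjusted p = 5.42e-07), with 457 CPM in the 1 library. No listed gene was called for combination against radiation.

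Calreticulin (CALR), the lectin chaperone of the loading complex, averaged 491 ± 12.9 CPM in combination cells and 589 ± 24.8 CPM in vehicle cells (SD, n = 3 each; log2 -0.26, SE 0.0656; edgeR adjusted p = 0.00587). GANAB, a glucosidase that prepares glycans for calreticulin and calnexin, averaged 84.8 ± 6.56 CPM in combination cells and 103 ± 9.79 CPM in vehicle cells (log2 -0.29; edgeR adjusted p = 0.0244). The catalytic proteasome subunit PSMB6 averaged 11.4 ± 1.74 CPM in combination cells and 17.8 ± 0.927 CPM in vehicle cells (log2 -0.65; edgeR adjusted p = 0.00646). PSMB7, another catalytic subunit, averaged 35.2 ± 1.67 CPM in combination cells and 45.3 ± 7.19 CPM in vehicle cells (log2 -0.37; edgeR adjusted p = 0.0266). These 4 calls are lost with scaling by library size alone, at log2 values of -0.06, -0.08, -0.44 and -0.16, with CALR, GANAB, PSMB6 and PSMB7 in this order. The CALR call is also lost without combination library 3 or vehicle library 2 (adjusted p up to 0.0662), GANAB without combination library 1 or 3 or vehicle library 2 or 3 (up to 0.262), PSMB6 without combination library 1 (0.0881) and PSMB7 without combination library 2 or 3 or vehicle library 3 (up to 0.399). Calnexin (CANX) was at 879 ± 30.3 CPM in combination cells and 896 ± 63.0 CPM in vehicle cells, and the oxidoreductase PDIA3, which pairs with tapasin, at 359 ± 15.0 CPM in combination cells and 396 ± 11.3 CPM in vehicle cells; neither was called.

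**Figure D5:**
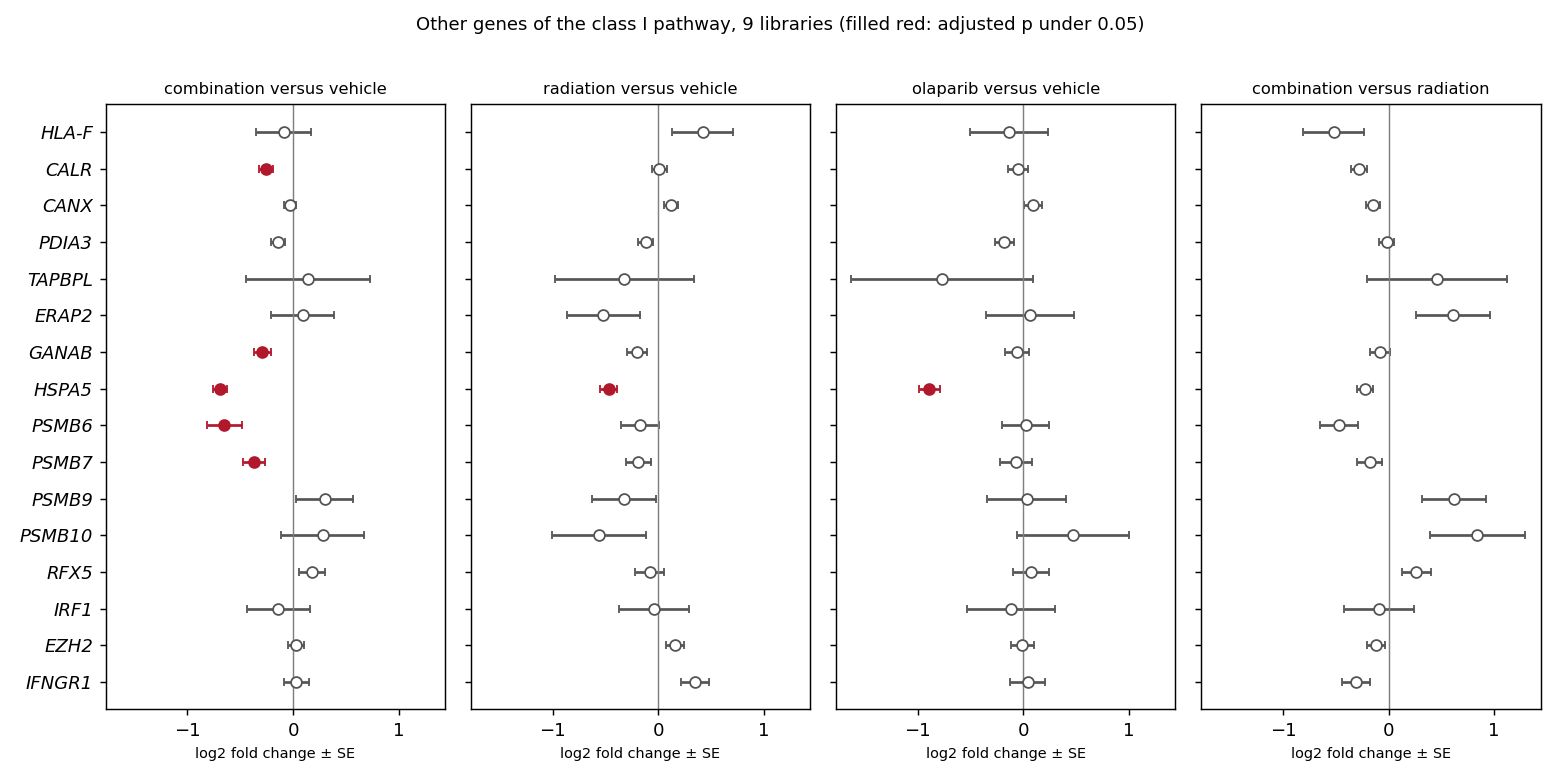
Log2 fold change ± SE (x axis) of 16 other genes of the class I pathway (y axis) in 4 comparisons over the 9 libraries; filled red points have an edgeR adjusted p under 0.05. For combination against vehicle CALR, GANAB, HSPA5, PSMB6 and PSMB7 are filled, all to the left of 0, and for radiation and for olaparib against vehicle HSPA5 is filled.

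Immunoproteasome subunits and regulators of class I transcription among the listed genes gave no call in the 4 comparisons. The immunoproteasome subunit PSMB9 averaged 5.92 ± 1.48 CPM in combination cells and 4.83 ± 1.09 CPM in vehicle cells (SD, n = 3 each; log2 0.3, SE 0.268; edgeR adjusted p = 0.746). PSMB10, another such subunit, averaged 2.97 ± 2.08 CPM in combination cells and 2.45 ± 0.361 CPM in vehicle cells, and PSMB8 was at most 0.538 CPM in the 9 libraries. The transcription factor IRF1 averaged 3.93 ± 1.15 CPM in combination cells and 4.32 ± 1.19 CPM in vehicle cells. The receptor chain IFNGR1 averaged 26.2 ± 0.35 CPM in combination cells, 32.6 ± 0.0282 CPM in radiation cells and 25.6 ± 3.73 CPM in vehicle cells (edgeR adjusted p = 0.274 for radiation against vehicle). RFX5, a subunit of the factor that binds the class I module, averaged 29.6 ± 2.39 CPM in combination cells and 26.1 ± 3.36 CPM in vehicle cells. EZH2, the methyltransferase of the repressive complex PRC2, averaged 148 ± 15.1 CPM in combination cells and 145 ± 1.41 CPM in vehicle cells.

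Other heavy chains and loading factors were also without a call in the 4 comparisons. HLA-F averaged 4.63 ± 0.435 CPM in combination cells and 4.94 ± 0.683 CPM in vehicle cells, and HLA-G was at most 0.183 CPM in the 9 libraries and was not tested. ERAP2, the second trimming peptidase, averaged 4.28 ± 0.863 CPM in combination cells and 4.02 ± 0.587 CPM in vehicle cells. TAPBPL, the peptide editor related to tapasin, averaged 1.24 ± 0.499 CPM in combination cells and 1.13 ± 0.519 CPM in vehicle cells, with a log2 fold change of 0.14 (SE 0.584).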

How the data were processed

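Gene expression was measured by RNA sequencing of total RNA libraries, made with a stranded kit per the labels' protocols. The deposited table held estimated counts per gene, unnormalised, and the authors used kallisto 0.46.1 and DESeq2, per the submitters' processing notes. No source used here gives the transcriptome release, genome build or strand setting. Of the values, 68.8% were whole to within 1e-06. The 44 pseudoautosomal Y rows were added to their X rows, leaving 60605 genes. Gene names came from the supplied annotation and matched 60463 IDs. Expected counts were rounded and tested with edgeR 4.0.16 (R 4.3.3) by its robust quasi-likelihood F-test, with TMM scaling, the filterByExpr filter and 1 coefficient per group, on 9 libraries. CPM values are TMM scaled, and p-values were adjusted by Benjamini-Hochberg over 30967 genes, with calls at 0.05. The floor of 3 counts (0.0788 to 0.146 CPM) covers counting error only, while the SDs and SEs include the spread between libraries. MT-RNR2 took 23.4% to 32.2% of counts. In all, 17 alternatives were run, DESeq2 1.42.0 among them. The named genes are the members, listed pathway genes and the 5 genes most like the class I mean. The members and the lists were chosen with earlier results of these data known. A permutation test of 3 against 3 libraries cannot go below 0.1 and was not used. Shared sequence was counted in 31-base runs of GENCODE 29 transcripts, which need not be the authors' release.
A few listed genes are not reported here individually, though they stay in the list counts.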

Additional observations from a re-analysis of the deposited data

Results flagged for a closer look

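NLRC5 was high in the 3 libraries kept out of the tests. It was 4.48 CPM in radiation library 3, 12.4 CPM in olaparib library 2 and 13.2 CPM in olaparib library 3, while the highest vehicle library had 0.666 CPM. In the same 3 libraries the 404 olfactory receptor genes summed to 920.2, 1897.1 and 2097.8 CPM, against 354.7 to 501.3 CPM in the other 9. The rise was not particular to NLRC5. The endothelial marker VWF had 2.79, 5.22 and 6.94 CPM there, and at most 0.587 CPM in the other 9. The lineage gene NCAM1 had 4.78, 6.38 and 10.3 CPM, against at most 1.32 CPM. Not every low gene rose as much, as NKG7 had 0.121, 0.0774 and 0.355 CPM, against at most 0.195 CPM. The part of the background in the NLRC5 values was not tested.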

How the results depend on the processing

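TAPBP was called lower in all 16 alternatives on the 9 libraries, at log2 -0.74 to -0.44 for combination against vehicle (adjusted p up to 0.0256) and -1.05 to -0.84 for radiation against vehicle (up to 0.00461), and lost both calls with all 12 libraries. The number of members called was then 0 and 0. It was 2 and 2 with library size only, and 2 for radiation against vehicle with DESeq2's size factors, no count filter, DESeq2 or the replicate block, B2M being added each time. With all 12 libraries 1, 0, 0 and 0 genes were called for combination, radiation and olaparib against vehicle and combination against radiation. With library size only 2594 (2275 higher, 319 lower) and 685 (560, 125) were called for combination and radiation against vehicle, and 200 (142, 58) for combination against radiation. Without a count filter 39 and with DESeq2 40 genes were called for olaparib against vehicle, and 278 and 423 for combination against radiation. The compared groups alone gave 190 for radiation against vehicle, 37 for olaparib against vehicle and 64 for combination against radiation. Same-numbered libraries correlated at -0.065 to 0.014, so numbers do not pair libraries; the replicate block gave 1494, 367, 43 and 214 genes in the 4 comparisons. Leaving out 1 library gave 1030 to 1716, 200 to 360, 18 to 33 and 38 to 447 genes, the last pair without radiation library 1 and without radiation library 2. It gave 1 to 1 and 1 to 2 members for combination and radiation against vehicle, B2M joining without combination library 1 (adjusted p = 0.0382).

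Uncalled members changed sign as follows; the cause was not tested. For combination against vehicle, NLRC5 was -0.45 with the block. For radiation against vehicle, library size only gave 0.00 for HLA-C, 0.09 for TAP1 and 0.02 for TAP2, the block 0.20 for TAP1 and -0.05 for ERAP1, and all 12 libraries 1.87 for NLRC5. For olaparib against vehicle, all 12 libraries gave -0.22 for HLA-B, -0.32 for HLA-E, -0.38 for B2M, -0.03 for TAP2 and -0.16 for ERAP1, library size only 0.03 for HLA-C, and the block 0.01 for HLA-C, 0.05 for TAPBP and -0.42 for NLRC5. With all 12 libraries the median over all genes in that comparison was 0.39, against -0.02 on the 9 libraries. For combination against radiation, all 12 libraries gave 0.01 for B2M and -1.71 for NLRC5. Leave-one-out ranges across 0 for combination against vehicle were -0.18 to 0.21 for HLA-C, -0.09 to 0.15 for HLA-E and -0.86 to 0.72 for NLRC5. For radiation against vehicle they were -0.20 to 0.06 for HLA-C, -0.18 to 0.12 for TAP1, -0.33 to 0.13 for TAP2, -0.06 to 0.18 for ERAP1 and -0.58 to 0.08 for NLRC5. For olaparib against vehicle HLA-C ran from -0.13 to 0.13. For combination against radiation they were -0.07 to 0.31 for HLA-C, -0.42 to 0.05 for TAP2, -0.05 to 0.19 for ERAP1 and -0.57 to 1.01 for NLRC5. At these depths the standard errors of NLRC5 and TAP1 were large. A change above its standard error could also go uncalled, as for TAP1 at log2 -0.53 (SE 0.3) for combination against vehicle.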
